A study of Rattus norvegicus with 6 samples.

Results

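Oligodendrocyte lineage genes were examined in the polyA mRNA of cultured cortical neural progenitors of the rat. They are 9 genes chosen by name for their place in the lineage, of 17337 gene names listed in the tables of all 4 libraries, and all 9 were found. Olig1, Olig2, Sox10, Nkx2-2 and Pdgfra are the 5 early members, known for specifying the lineage or marking its precursors. Cnp, Mbp, Mag and Mog are the 4 myelin members, which encode proteins of the oligodendrocyte and its sheath. Their levels are described by stage of the lineage and by how evenly the 2 replicates carried them.

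The cells were taken from the cortices of Sprague Dawley embryos at embryonic day 14, grown with bFGF and EGF, and harvested after the second passage. Replicates A and B were both untreated and unmodified, and each gave 2 technical libraries, called A1 and A2 or B1 and B2. There was 1 condition, so no comparison of treatments was possible, and the number of embryos behind each replicate is not given in the sources used here. Levels are in FPKM, the fragments of a gene scaled to transcript length and to the depth of its library, which compares genes per length. Means and SDs are over replicates A and B after the technical libraries were averaged.

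Oligodendrocytes are the glial cells that wrap axons of the brain in myelin. In the forebrain the first of their precursors arise ventrally, where Sonic hedgehog switches on Olig2 and its neighbour Olig1, and they are recognised by the PDGF receptor alpha on their surface. Sox10 comes on as cells commit to the lineage, and the myelin proteins follow when the precursors stop dividing. FGF in the culture medium is itself known to raise Olig2 in cortical progenitors.

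The depth behind these values was unequal. Coverage, the mean read depth over a gene's transcripts, corresponded to a median of 22.7 to 24.4 per FPKM in A1, A2 and B1 and to 6.83 in B2. The forebrain gene Lhx2, looked up after its values were seen, stood at 54.8 ± 14.1 FPKM (SD, n = 2), and Hoxb4, a hindbrain and spinal cord gene, at 0.0221 FPKM. Neural progenitor, astrocyte and mesenchymal markers were all present, as given with the results below that they accompany. In bulk samples, fewer cells of a type and less RNA per cell cannot be told apart.

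Of the 9 genes, 7 averaged at least 1 FPKM, against 60.5% of all genes listed. These were 4 of the 5 early members and 3 of the 4 myelin members, and the exceptions were Sox10 and Mag. Olig1 stood highest, followed by Olig2, Cnp, Pdgfra, Mbp, Mog, Nkx2-2, Mag and Sox10. Not every step of that order held within the libraries. Olig1 was above Olig2, Pdgfra above Mbp, Mog above Nkx2-2 and Nkx2-2 above Mag in 4 of 4 libraries with ranges that did not overlap, while Olig2 and Cnp, Cnp and Pdgfra, Mbp and Mog, and Mag and Sox10 had overlapping ranges.

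**Figure D1:**
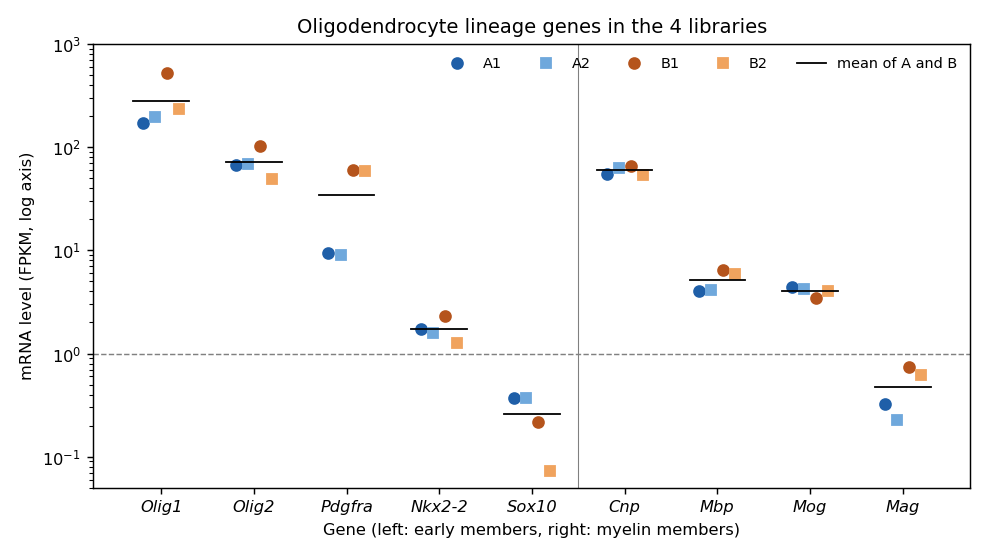
FPKM (log axis) of the 9 genes in libraries A1, A2 (blue) and B1, B2 (orange), with the mean of replicates A and B as a black line, early members to the left and myelin members to the right of the grey line. Olig1 reached 523 FPKM in B1, Pdgfra was near 9 FPKM in A and 59 FPKM in B, and Sox10 and Mag lay below the dashed line at 1 FPKM in every library.

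Olig2 encodes the basic helix-loop-helix factor that the lineage depends on. It maps to chromosome 11 of rn6, plus strand, from 31389514 to 31392890. Its FPKM was 66.8 and 69.3 in A1 and A2, and 103 and 49.7 in B1 and B2, a mean of 72.3 ± 6.00 (SD, n = 2) and rank 1506 of 17337. The libraries of replicate B enclosed those of replicate A, so the replicates overlapped. The level in B1 was 2.08 times that in B2, a gap between libraries of 1 replicate that was far wider than the gap between the replicate means.

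Olig1, the paralogue of Olig2 and a regulator of oligodendrocyte maturation, follows it on the same strand after 35486 bp, from 31428377 to 31430519. Its FPKM was 172 and 195 in A1 and A2, and 523 and 237 in B1 and B2, a mean of 282 ± 139 (SD, n = 2), which ranked 308 of 17337. Both libraries of B were above both of A, and the mean of B was 2.07 times that of A. On the log2(FPKM + 1) scale, which understates changes of low genes, the difference was 1.05. Genes were counted as differing between the replicates at a mean of at least 1 FPKM, a difference of at least 1 on this scale and separate ranges of the A and B libraries. By that rule 650 of 10481 genes differed, or 6.20%, and 4.78% were higher in B. Olig1 passed it narrowly. Without A1 its difference was 0.96, without B1 it was 0.37, and with the log2 values of the technical libraries averaged it was 0.94, none of which passes.

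Olig1 and Olig2 did not keep the same proportion in the 2 replicates. The ratio of Olig1 FPKM to Olig2 FPKM was 2.57 and 2.81 in A1 and A2, and 5.06 and 4.77 in B1 and B2, a mean of 3.80 ± 1.57 (SD, n = 2). Both technical libraries of a replicate gave close ratios, although in B1 each of the genes was more than 2-fold its level in B2. Among the 4 members averaging at least 10 FPKM, these were the 2 genes with a gap of that size between B1 and B2, and 2.32% of all genes at that level had one. The other neighbours of the locus, Il10rb after Olig1 at 14.6 ± 2.03 FPKM and RGD1562726 before Olig2 at 0.218 ± 0.0287 FPKM (SD, n = 2), were lower than either gene.

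The 300 bases around the start of Olig2, 250 before it and 50 after it, are shown because the gene is among the highest of the members. They are from RefSeq at chr11:43961335-43961634 of GRCr8, plus strand, a newer assembly than rn6, and capitals mark each CpG.
Olig2: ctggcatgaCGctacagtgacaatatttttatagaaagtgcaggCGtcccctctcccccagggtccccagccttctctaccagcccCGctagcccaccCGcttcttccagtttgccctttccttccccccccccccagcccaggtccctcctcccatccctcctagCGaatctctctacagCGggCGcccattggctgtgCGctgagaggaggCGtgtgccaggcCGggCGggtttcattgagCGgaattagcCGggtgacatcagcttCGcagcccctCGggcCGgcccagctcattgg
The window held 16 CpG at a GC content of 63.3%, against a median of 7 CpG and 51.7% over 33469 RefSeq promoter windows of this length, of which 69.5% held fewer CpG. CANNTG, the E-box that basic helix-loop-helix factors bind and which reads the same on both strands, was not in it.

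Nkx2-2, a homeodomain factor that ventral progenitors and maturing oligodendrocytes share, maps to chromosome 3, minus strand, from 141408798 to 141411170. Its FPKM was 1.72 and 1.58 in A1 and A2, and 2.29 and 1.25 in B1 and B2, a mean of 1.71 ± 0.0863 (SD, n = 2) and rank 9847. The replicates overlapped, and B1 was again above and B2 below the libraries of A. Its neighbours were Xrn2 at 32.7 ± 2.32 FPKM and Pax1, a gene of the developing axial skeleton, at 4.03 ± 3.40 FPKM (SD, n = 2).

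Sox10, the factor that holds cells in the oligodendrocyte lineage and switches on myelin genes, maps to chromosome 7, minus strand, from 120393254 to 120403523. Its FPKM was 0.369 and 0.373 in A1 and A2, and 0.219 and 0.0732 in B1 and B2. The mean of 0.258 ± 0.159 (SD, n = 2) was the lowest of the 9 genes, rank 11717. Both libraries of B were below both of A, at coverages of 8.97, 8.48, 5.33 and 0.50 in the same order, so that the level in B2 rests on very few reads. Polr2f, which ends 3211 bp before it on the other strand and encodes an RNA polymerase subunit, stood at 210 ± 3.84 FPKM, and Pick1, on its other side, at 27.8 ± 5.68 FPKM (SD, n = 2).

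Pdgfra encodes the receptor for PDGF that drives division of oligodendrocyte precursors, and it is also a long-known marker of mesenchymal cells. It maps to chromosome 14, minus strand, from 35527926 to 35581031. Its FPKM was 9.50 and 9.09 in A1 and A2, and 59.5 and 59.4 in B1 and B2, a mean of 34.4 ± 35.4 (SD, n = 2) and rank 3114. The technical libraries were nearly equal within each replicate, and the mean of B was 6.39 times that of A, a difference of 2.55 on the log2(FPKM + 1) scale. Its neighbours went the other way by smaller amounts, with Kit at 2.00, 1.51, 1.31 and 1.14 FPKM and Gsx2 at 5.12, 5.38, 1.51 and 2.79 FPKM in A1, A2, B1 and B2.

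Markers of mesenchymal and meningeal cells moved with Pdgfra. Of 15 such markers other than Pdgfra, all 15 averaged at least 1 FPKM, 14 were counted as higher in B and 0 as higher in A, and their median difference was 1.91 on the log2(FPKM + 1) scale, against -0.03 over all genes at 1 FPKM or more. Their summed level was 768 and 753 FPKM in A1 and A2 and 2841 and 4239 FPKM in B1 and B2. Leaving out B2 left 10 of them counted as higher in B. The ratio of Pdgfra to Col1a2, a fibrillar collagen gene, was 0.0665, 0.0650, 0.0934 and 0.0744 in A1, A2, B1 and B2. Pdgfrb, the related receptor of pericytes and fibroblasts, stood at 21.6, 17.6, 31.5 and 38.3 FPKM, the member of the marker list that was not counted as differing. None of the markers was at 0 in any library. Their part in the Pdgfra difference was not tested.

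**Figure D2:**
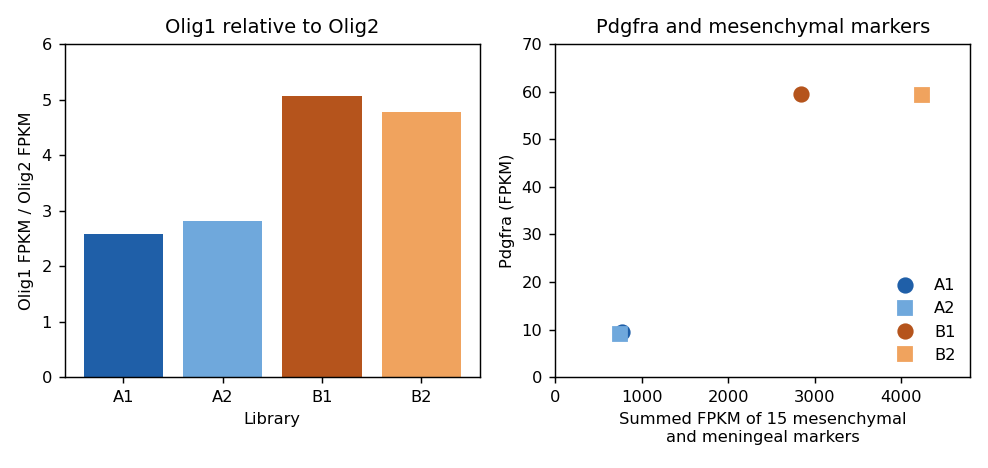
Left, the ratio of Olig1 FPKM to Olig2 FPKM in each library as bars; right, Pdgfra FPKM against the summed FPKM of 15 mesenchymal and meningeal markers, 1 point per library. The ratio was 2.57 and 2.81 in A1 and A2 and 5.06 and 4.77 in B1 and B2, and both libraries of B lay at higher Pdgfra and higher marker sums than both of A.

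The same window is printed for Pdgfra, at chr14:33408467-33408766 of GRCr8, minus strand, as the early member with the largest difference between the replicates.
Pdgfra: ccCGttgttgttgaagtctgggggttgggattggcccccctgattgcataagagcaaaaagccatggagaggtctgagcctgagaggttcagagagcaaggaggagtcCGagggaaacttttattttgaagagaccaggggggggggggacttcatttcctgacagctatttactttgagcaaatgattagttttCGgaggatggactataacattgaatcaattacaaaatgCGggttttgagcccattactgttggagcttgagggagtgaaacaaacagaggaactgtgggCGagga
It held 5 CpG at a GC content of 48.0%, and 38.0% of all windows held fewer. CANNTG occurred in it 1 time. The motif was in 72.1% of all windows and in 4 of the 7 windows of the 6 members that have an entry.

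Other genes listed for the lineage were present in part. Other cell types can share them, so these counts are not specific to precursors. Of 14 lineage transcription factors other than the members, 13 averaged at least 1 FPKM and 0 were counted as differing between the replicates, or 1, as higher in A, without A1 or without B2. Among them were Sox4 at 255 ± 40.8 FPKM and Sox9, which acts in glial specification, at 117 ± 24.7 FPKM (SD, n = 2). Sox8, the close relative of Sox10, stood at 39.3 ± 5.67 FPKM (SD, n = 2), with 28.9 to 44.4 FPKM over the 4 libraries, all far above Sox10.

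Of 14 receptors and surface genes of precursors other than Pdgfra, 10 averaged at least 1 FPKM, 0 were counted as higher in B and 1 as higher in A. That gene was Vcan, a matrix proteoglycan, with 39.5 and 47.4 FPKM in A1 and A2 and 13.9 and 26.7 FPKM in B1 and B2, and without A2 it was not counted. The highest were Ptprz1, a receptor phosphatase also carried by radial glia, at 257 ± 85.5 FPKM, and the proteoglycan genes Bcan at 130 ± 0.202 and Cspg5 at 117 ± 24.2 FPKM (SD, n = 2). Cspg4, which encodes the NG2 antigen of precursors, was low in every library, at 0.386, 0.367, 0.956 and 0.630 FPKM in A1, A2, B1 and B2. Gpr17, a receptor of precursors about to differentiate, was lower still, at 0.0373 to 0.122 FPKM.

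Of 14 genes of committed precursors other than Nkx2-2, 10 averaged at least 1 FPKM. Sirt2, a tubulin deacetylase, stood at 134 ± 12.2 FPKM, Fyn, a kinase of myelinating processes, at 71.1 ± 1.39 FPKM and Bcas1 at 13.8 ± 3.22 FPKM (SD, n = 2). Bmp4, a secreted factor that opposes the oligodendrocyte fate, was the 1 gene of the list counted as higher in B, at 18.1 and 17.5 FPKM in A1 and A2 and 45.0 and 76.5 FPKM in B1 and B2. Enpp6 and Lims2, which newly formed oligodendrocytes express, averaged 0.0446 and 0.220 FPKM, and Neu4 was listed at 0 in all 4 libraries.

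Cnp, which encodes a phosphodiesterase of the oligodendrocyte cytoplasm, was the highest of the myelin members. It maps to chromosome 10, plus strand, from 88490798 to 88497357, and Dnajc7, at 159 ± 12.6 FPKM (SD, n = 2), begins 1184 bp beyond it on the other strand, while Ttc25, which ends 2560 bp before it, averaged 1.32 ± 0.369 FPKM (SD, n = 2). Cnp FPKM was 54.5 and 63.2 in A1 and A2, and 65.9 and 54.3 in B1 and B2, a mean of 59.5 ± 0.889 (SD, n = 2) and rank 1845. It had the smallest log2 difference of the 9 genes, 0.03, and the libraries overlapped. Its window, at chr10:86011254-86011553 of GRCr8, plus strand, is printed for contrast with Pdgfra.
Cnp: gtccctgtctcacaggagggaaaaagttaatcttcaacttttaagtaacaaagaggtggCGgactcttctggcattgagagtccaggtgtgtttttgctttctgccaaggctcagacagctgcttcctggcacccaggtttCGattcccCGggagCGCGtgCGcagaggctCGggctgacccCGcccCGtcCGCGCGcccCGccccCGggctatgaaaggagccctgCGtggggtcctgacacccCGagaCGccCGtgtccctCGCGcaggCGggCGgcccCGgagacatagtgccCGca
It held 24 CpG, the most of the members' windows, at a GC content of 63.3%, and CANNTG occurred 2 times.

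Mbp encodes the basic protein that compacts myelin, and its locus also gives rise to golli transcripts, which are known from cells outside the lineage. The gene spans 110573 bp of chromosome 18, plus strand, from 79326738 to 79437310, and the gene-level values do not separate these transcripts. Its FPKM was 4.0 and 4.16 in A1 and A2, and 6.47 and 5.89 in B1 and B2, a mean of 5.13 ± 1.48 (SD, n = 2) and rank 8103. Both libraries of B were above both of A, by 1.51-fold in the means, and the difference of 0.50 on the log2(FPKM + 1) scale was short of the rule. On either side of Mbp, Galr1 was listed at 0 in all 4 libraries and Zfp516 averaged 2.02 ± 0.0987 FPKM (SD, n = 2).

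Mog encodes an immunoglobulin-like protein of the outermost myelin layer and is known as a late marker. It maps to chromosome 20, plus strand, from 2004052 to 2014284. Its FPKM was 4.42 and 4.20 in A1 and A2, and 3.42 and 4.07 in B1 and B2, a mean of 4.03 ± 0.404 (SD, n = 2) and rank 8576. The last 94 bp of the Mog span are shared with Zfp57, which lies on the other strand at 5.43, 4.85, 3.55 and 7.49 FPKM in A1, A2, B1 and B2. Whether counting used the strand is not given in the sources used here, so reads in the shared stretch cannot be assigned with certainty. Gabbr1, on the other side, was at 217 ± 136 FPKM (SD, n = 2).

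Mag, an adhesion protein of the inner myelin layer, maps to chromosome 1, minus strand, from 89345419 to 89360733. Its FPKM was 0.326 and 0.225 in A1 and A2, and 0.733 and 0.623 in B1 and B2, a mean of 0.477 ± 0.284 (SD, n = 2) and rank 11174. B was above A in both libraries, at levels that stayed under 1 FPKM throughout. Cd22 and Hamp beside it averaged 0.0171 and 0.116 FPKM.

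Of the 18 other myelin structural genes, 8 averaged at least 1 FPKM, 2 were counted as higher in B and 0 as higher in A. Cd9, a tetraspanin of many cell types, was the highest at 86.7 ± 7.34 FPKM (SD, n = 2), and its B1 and B2 levels of 45.6 and 138 FPKM lay on opposite sides of replicate A. The 2 genes that differed were Cryab, a small heat shock protein, at 26.8, 30.8, 59.4 and 92.6 FPKM, and Cldn11, a tight junction protein of myelin and of the arachnoid, at 4.31, 5.03, 11.3 and 31.6 FPKM in A1, A2, B1 and B2. The genes most restricted to compact or mature myelin were near the floor, with mean FPKM of 0.0599 for Mobp, 0.0295 for Mal, 0.0193 for Opalin, 0.118 for Ermn, 0.0178 for Gjb1 and 0.0174 for Tppp.

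Of 14 genes of myelin lipids and metabolism, 11 averaged at least 1 FPKM and 2 were counted as higher in B. They were Apod, a lipid carrier, at 165, 187, 264 and 581 FPKM, and Ndrg1 at 1.58, 1.57, 4.29 and 9.03 FPKM in A1, A2, B1 and B2. Without B2, 1 was counted as higher in B and 1 as higher in A. Hmgcs1, an enzyme of sterol synthesis that all cells need, averaged 131 ± 51.5 FPKM and Pla2g16 121 ± 21.6 FPKM (SD, n = 2). The galactolipid enzymes were low, with 1.47 ± 0.458 FPKM for Ugt8 and 0.218 ± 0.0625 FPKM for Fa2h (SD, n = 2). Over the lineage lists as a whole, 57 of 80 genes averaged at least 1 FPKM.

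**Figure D3:**
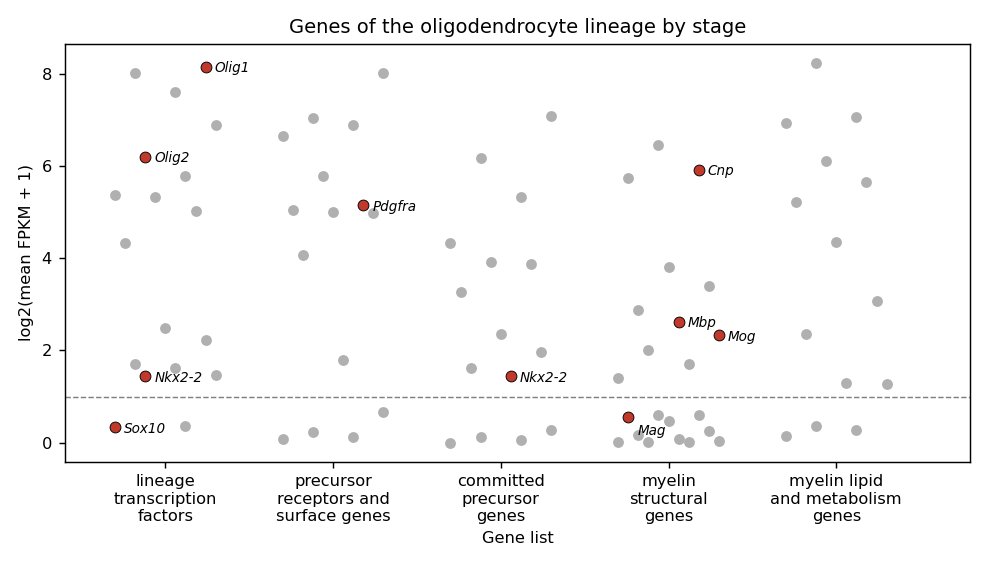
Mean level of each gene, as log2(mean FPKM + 1), in 5 lists ordered by stage of the lineage, with the 9 named genes in red, all others in grey and 1 FPKM as a dashed line. Of the genes other than the members, 13 of 14 lineage transcription factors, 10 of 14 precursor receptors and surface genes and 10 of 14 committed precursor genes lay above the line. So did 8 of 18 myelin structural genes and 11 of 14 myelin lipid and metabolism genes, so the share did not fall steadily by stage.

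The median early member was higher than the median myelin member in both replicates, by unequal margins, although Nkx2-2 and Sox10 were below Cnp, Mbp and Mog in each. The early median was at 9.29 FPKM in A and 59.4 FPKM in B, and the myelin median at 4.20 and 4.96 FPKM. The difference of the medians on the log2(FPKM + 1) scale was 0.99 in A and 3.37 in B, a mean of 2.18 ± 1.69 (SD, n = 2). Pdgfra was the median early member, and without it the difference was 1.38 in A and 1.33 in B, a mean of 1.36. The unequal margins of the medians thus rest on Pdgfra, the gene that set the early median. Pdgfra moved with the mesenchymal markers, whose part was not tested. With means over the members in place of medians the difference was 1.28. As sums, the early members reached 263 and 518 FPKM and the myelin members 67.5 and 70.7 FPKM, ratios of 3.89 and 7.32, of which Olig1 and Cnp made up most on either side. The early sums were unequal mainly through Olig1, at 183 FPKM in A and 380 FPKM in B.

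Between the replicates, 2 of the 7 members that reached the minimum of 1 FPKM were counted as differing, Olig1 and Pdgfra, both higher in B. Of all genes at 1 FPKM or more, 6.20% were counted in either direction and 4.78% as higher in B. Across the members, 7 were higher in B by some amount, but for Olig2, Nkx2-2 and Cnp the sign changed in some settings. The libraries of A and B did not overlap in 6 members. Neither count was set against a matching share of all genes. Of the 7 members at 1 FPKM or more, 4 had no overlap, where 60.1% of all genes at that level had none. Both genes counted were early members, and the differences of the myelin members ran from -0.16 to 0.50.

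**Figure D4:**
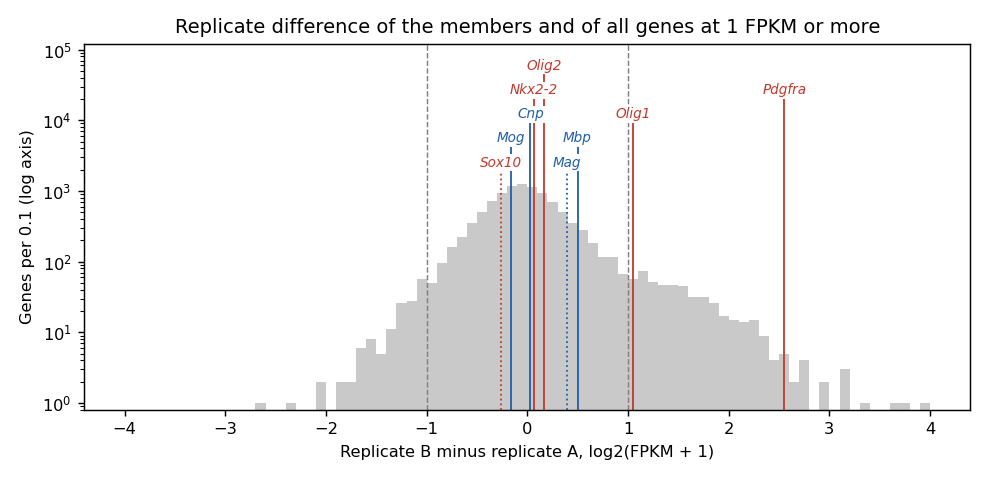
Difference of replicate B minus replicate A on the log2(FPKM + 1) scale for all 10481 genes at 1 FPKM or more (grey histogram, log axis of genes per bin of 0.1) with early members as red and myelin members as blue lines, dotted where the mean was below 1 FPKM. Olig1 at 1.05 and Pdgfra at 2.55 lay beyond the dashed lines at -1 and 1, and the other members lay between -0.26 and 0.50.

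Ligands and receptors known to act on the early members were examined next. Of 13 PDGF and mitogen genes other than Pdgfra, 8 averaged at least 1 FPKM and 0 were counted as differing, or 1, as higher in A, without A2 or without B1. Pdgfa, the ligand of Pdgfra, was at 12, 11.9, 12.8 and 20.5 FPKM in A1, A2, B1 and B2, a far smaller spread than that of its receptor. Fgfr1 and Fgfr3, receptors for the FGF in the medium, averaged 80.3 ± 3.25 and 42.8 ± 18.2 FPKM (SD, n = 2), and Egfr 11.1 ± 5.22 FPKM (SD, n = 2).

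Of 13 ventral patterning genes, 10 averaged at least 1 FPKM, 0 were counted as higher in B and 2 as higher in A. Shh itself was at 0.0459 to 0.126 FPKM. The 2 that differed were Nkx2-1, a marker of the ventral forebrain, at 117, 103, 57.1 and 45.9 FPKM, and Dlx1, a factor of ventral interneuron progenitors, at 112, 99.2, 39.9 and 39.2 FPKM in A1, A2, B1 and B2. Dlx2 stood at 63.1, 65.3, 36.0 and 38.9 FPKM. All 3 were higher in A, while 7 of the 13 genes of the list were higher in B by some amount.

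Inhibitors of differentiation were well expressed, with 15 of 16 at 1 FPKM or more. Hes5, a Notch target, was the highest and was counted as lower in B, at 397, 400, 197 and 162 FPKM in A1, A2, B1 and B2. Id2 and Id4, which sequester basic helix-loop-helix partners, averaged 161 ± 18.1 and 85.8 ± 29.4 FPKM (SD, n = 2). Bmp4, given above, and Bmp7, at 17.9, 18.9, 51.9 and 93.9 FPKM, were the 2 counted as higher in B.

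Among 130 genes of the lists, those whose log2(FPKM + 1) profile over the 4 libraries was most like a member's were named by the distance of the centred profiles. Among the nearest were, for Olig2, Ntsr2, an astrocyte marker, at 0.083 and, for Nkx2-2, Aldh1l1, an astrocyte and progenitor enzyme, at 0.118. These 4 genes were highest in B1 and lowest in B2. Ntsr2, for example, was at 23.3, 24.9, 37.8 and 16.5 FPKM in A1, A2, B1 and B2. Nearest to Pdgfra were the matrix genes Dcn at 0.269 and Col1a2 at 0.325. Olig1 had no close match, its nearest being Rgcc at 0.601 and Lingo1, an inhibitor of myelination, at 0.683. Only 4 libraries enter each distance, so such matches are a description.

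Other cell types that can share these genes were measured beside them. All 14 radial glia and progenitor markers and all 12 astrocyte markers averaged at least 1 FPKM, led by Fabp7 at 11840 ± 8256, Vim at 3291 ± 374 and Sox2 at 478 ± 137 FPKM and by Sparcl1 at 967 ± 177, Gfap at 571 ± 128 and Aldoc at 556 ± 175 FPKM (SD, n = 2). Fabp7 and S100b, a gene of astrocytes and of the oligodendrocyte lineage, were counted as lower in B, and the gap junction gene Gjb6 as higher. Without B2, 0 of the 12 astrocyte markers were counted as differing, and without B1 there were 2 higher in B and 3 higher in A. The summed astrocyte markers ranged from 2679 to 2878 FPKM over the 4 libraries. Of the neuron markers, 9 of 12 averaged at least 1 FPKM and 0 were counted as differing, or 1, as higher in A, without B1, with Tubb3 at 118 ± 9.88, Stmn2 at 21.4 ± 1.46 and Dcx at 9.70 ± 2.79 FPKM (SD, n = 2).

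Schwann cells, the myelinating glia of peripheral nerve, use Sox10, Mbp and Mag as well. Of 11 Schwann cell and neural crest markers other than Sox10, 7 averaged at least 1 FPKM, and Pmp22 and Tfap2a were counted as higher in B, against 1 gene, Tfap2a, without B2 and 3 genes without B1. Ncmap was listed at 0 in all 4 libraries. Pmp22, which fibroblasts also express, stood at 107 ± 54.5 FPKM (SD, n = 2), and Ngfr at 8.31 ± 0.798 FPKM (SD, n = 2). Endothelial markers were near the floor, with 0 of 8 at 1 FPKM and sums of 1.58 to 6.50 FPKM, led by Flt1, Egfl7 and Cdh5. Of 11 microglia markers, Tmem119 alone reached 1 FPKM, at 4.47 ± 1.02 FPKM (SD, n = 2), followed by Aif1 and C1qc, and the sums were 4.05 to 8.55 FPKM.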

How the data were processed

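PolyA RNA-seq of cortical neural progenitors was deposited as 1 gene table for each of 4 libraries, and samples were grouped by their labels. Column names in the study can also be read as putting A1 together with B1 and A2 together with B2, and every mean, SD and difference here rests on the grouping of the labels. Reads had been aligned with STAR to the rn6 build by the authors. The deposited FPKM and TPM were scaled by the authors for transcript length and library depth, and the deposited coverage was not scaled for depth. The tables have the layout of StringTie, which the submitters' processing notes name beside cutadapt and HISAT, while the methods name Rsubread and DESeq2 for FPKM. Versions are not given in the sources used here. Total reads are not in the tables, so depth was read from coverage per FPKM. Start-seq, with 2 samples, was not used here.

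Rows that share a gene name were added up, and FPKM was averaged over the technical libraries of a replicate. That these libraries share a culture was taken from the labels and is not stated. Differences were taken with a pseudocount of 1. With 2 biological replicates of 1 condition no test was run. The rule for differing genes was tried on simulated libraries only with changes larger than that of Olig1. The trial therefore does not bear on narrow calls such as Olig1. In all 15 gene lists were used, and the members and lists were chosen with earlier results of these data known. The 3 genes of each list that were highest on average and those counted as differing are named, together with the members' chromosome neighbours and the 2 genes most like each early member at 1 FPKM or more. Other genes named were chosen after their values were seen, and a few genes that this rule names are not reported here. The alternatives were TPM, scaling to the same median, other thresholds and pseudocounts, single rows per name, and left-out libraries and replicates. Python 3.11.15 with pandas 2.3.3, numpy 2.4.6 and matplotlib 3.10.9 was used. Promoter windows are from RefSeq (GRCr8) and were matched by symbol for 6 of the 9 members.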

Additional observations from a re-analysis of the deposited data

Results flagged for a closer look

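Of 26 values examined over the 4 libraries, 3 stood apart by the gap to the nearest library relative to the whole range, all of them in B2, and 0 of the 9 members' own levels did. About 1 in 20 such values is expected by chance, and libraries of 1 replicate are not independent. The median coverage per FPKM was 6.83 in B2, against 22.7 to 24.4 in the others. The myelin structural genes other than the members summed to 284 FPKM in B2, against 139, 149 and 135 FPKM in A1, A2 and B1. The myelin lipid and metabolism genes summed to 1103 FPKM in B2, against 586, 634 and 637 FPKM. Between B1 and B2, 1 gene made up much of each gap, Cd9 at 138 FPKM against 45.6 FPKM in B1 and Apod at 581 FPKM against 264 FPKM.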

How the results depend on the processing

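The number of members counted as differing between A and B, which was 2, was 1 with TPM, 1 with averaged log2 values, a setting chosen after seeing the data, and 1 to 2 over the left-out technical libraries, with Olig1 lost without A1 or without B1. Pdgfra was counted in every setting run. Of 131 recomputed values, 116 stayed within the spread, which was that of the technical libraries for the members' differences, that of replicates A and B for early minus myelin, and 1.5 times for counts. The sign of a member's difference changed in 5 of 81 cases, all in Olig2, Nkx2-2 and Cnp. Without B1, the difference of Olig2 was -0.45 and that of Olig1 0.37 (log2). The number of members at 1 FPKM stayed at 7 except for 5 at a threshold of 5 FPKM, and early minus myelin ran from 0.99 with A alone to 3.37 with B alone. Over all genes, 571 were counted without B2 and 890 without B1, against 650. Sox10 and Mag, both below 1 FPKM, moved most with the pseudocount, to -0.94 and 1.05 at 0.1. No paired analysis was possible because there is 1 condition and the result comes from no test.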
